A study of Mus musculus with 17 samples.

Results

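The genes described here encode transcription factors that set the fate of T cells, and each was read in all tumors of the series: Tcf7, Lef1 and Id3, which mark naive, memory and stem-like T cells, Tbx21, Eomes and Prdm1, which direct effector differentiation, Tox, which is tied to exhaustion, and the NR4A receptors Nr4a1, Nr4a2 and Nr4a3, which T cell receptor signals induce. The members were the rows of the count table whose Ensembl identifiers carry these symbols in Gencode vM21, and each symbol matched 1 row, so that they make up 10 of 55450 genes. Antisense genes overlap exons of Lef1 (Gm43352, 147 counts over all libraries beside 4495 of Lef1), Eomes (Gm33460, 352 beside 8628) and Tox (Gm11802, 14 beside 6005), and whether the counting used the strand is not given in the sources used here. All members are protein coding genes, and all 10 passed the filter on low counts in every comparison, with between 66 counts (Lef1) and 3674 counts (Prdm1) in a single library. In GRCm38 they lie on chromosome 11 (Tcf7, 52252371 to 52283014, and Tbx21, 97098071 to 97115331), chromosome 3 (Lef1, 131110471 to 131224356), chromosome 9 (Eomes, 118478212 to 118486132), chromosome 10 (Prdm1, 44437177 to 44528501), chromosome 15 (Nr4a1, 101254269 to 101274795), chromosome 2 (Nr4a2, 57106830 to 57124003) and chromosome 4 (Id3, 136143497 to 136145755, Tox, 6686353 to 6991557, and Nr4a3, 48045153 to 48086447).

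A T cell that meets its antigen switches from a program of self-renewal, in which TCF-1 (encoded by Tcf7), LEF-1 and the inhibitor of DNA binding Id3 take part, to an effector program led by the T-box factors T-bet (encoded by Tbx21) and Eomes and by the repressor Blimp-1 (encoded by Prdm1). When antigen persists, as in a tumor, T cells can enter exhaustion, a state in which TOX and the NR4A receptors are active while a TCF-1 positive pool renews the exhausted cells and is known to respond to checkpoint blockade. None of the genes is exclusive to T cells: T-bet and Eomes are also used by NK cells, Blimp-1 by plasma cells and macrophages, and Id3 and the NR4A receptors by endothelial cells and macrophages among others.

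The samples were peritoneal tumors of AB12, a murine mesothelioma cell line, grown in 8-week-old female BALB/c mice after injection of the cells into the peritoneum. Each group came from at least 3 independent mice. Of the untreated tumors, 3 were taken at d6, 5 at d10 and 3 at d14. A further 3 tumors at d10 and 3 at d14 came from mice given 200 µg of anti CTLA-4 (clone 9D9), which blocks an inhibitory receptor of T cells. The treated d14 mice were injected on d6 and d10, and the injection days of the treated d10 mice are not described in the sources used here. Every group thus carries the same cell line in the same host, and no group received a control antibody that the labels name.

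Total counts per library lay between 46371577 and 96759833. Cell type markers were read as summed normalized CPM, the counts of a gene scaled to equal library size with the TMM factors of edgeR. All 8 mesothelial or mesothelioma markers were detected above 3 counts in every group and summed to between 1882 and 4041 CPM, while 12 T cell markers summed to 105 to 113 CPM at d6, 336 to 464 at d10 and 132 to 240 at d14, and to 314 to 365 at d10 and 353 to 407 at d14 after treatment. By the counts of 396 pseudogenes and small RNA genes, average-linkage clustering cut at 3 put the libraries into these sets: untreated d6 with untreated d10 replicates 1 to 3, untreated d10 replicates 4 and 5 with treated d10, and both d14 groups together. Cut at 4, the treated d10 tumors formed a set of their own, apart from untreated d10 replicates 4 and 5. Untreated d14 therefore shared a set with no earlier untreated tumor, and library set and day cannot be told apart in the comparisons of d14 with d10 and d6. In tumor RNA, fewer T cells and less of a transcript per T cell cannot be told apart either, so each member is given both as CPM and as counts per 1000 counts of Cd3d, Cd3e and Cd3g, the genes of the CD3 chains that every T cell uses.

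A member was called higher or lower where the adjusted p-value of edgeR's quasi-likelihood test was below 0.05 over all genes tested and the difference exceeded 2-fold. Per kb of exon, the mean level over the 17 libraries was highest for Prdm1 (4.49 CPM per kb), Nr4a1 (4.40) and Tbx21 (4.24), followed by Tcf7 (2.98), Id3 (2.73), Nr4a3 (1.92), Nr4a2 (1.82), Eomes (1.67), Tox (0.62) and Lef1 (0.41). Neighbours in this order overlapped between tumors in most groups: for 7 of the 9 steps the ranges were apart in no more than 2 of the 5 groups, while Tbx21 lay above Tcf7 without overlap in 3 and Eomes above Tox in 4.

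**Figure D1:**
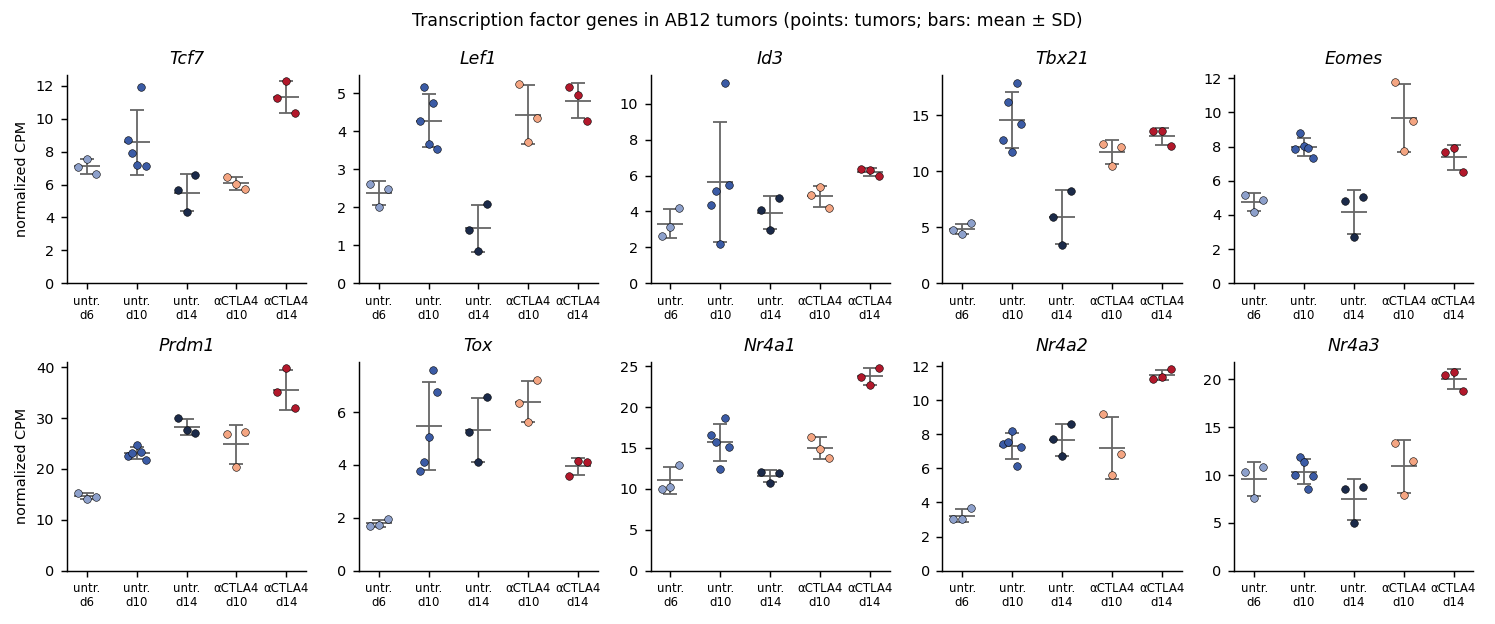
Normalized CPM (vertical axis, starting at 0) of the 10 transcription factor genes in every tumor, by group (horizontal axis; untr., untreated; αCTLA4, anti CTLA-4 treated). Points are tumors and bars the mean ± SD, and the 3 NR4A genes have their highest values in the treated d14 tumors.

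Between d6 and d10 the untreated tumors gained transcripts of Tox, Tbx21 and Nr4a2. These were called higher at d10, 3 of 10 members where 4.79% of 16866 genes were called higher, and no member was called lower, where 2.66% of genes were. By adjusted p-value alone 7 of 10 members were higher, against 10.5% of all genes. The median log2 difference was 0.79 over the members and 0.027 over all genes tested.

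Tbx21, the gene of T-bet, was read at 4.76, 4.43 and 5.37 CPM in the d6 tumors. In the d10 tumors it was at 12.8, 16.2, 11.7, 17.9 and 14.2 CPM. Every d10 tumor lay above every d6 tumor, and the log2 difference was 1.61 (SE 0.17, adjusted p = 0.000468). Eomes, its paralog, moved less, from 4.15 to 5.18 CPM at d6 to 7.32 to 8.78 CPM at d10 (log2 difference 0.77, SE 0.14, adjusted p = 0.0058, within 2-fold). Prdm1, the gene of Blimp-1, was at 14.1 to 15.3 CPM at d6 and 21.7 to 24.8 CPM at d10 (log2 difference 0.69, SE 0.10, adjusted p = 0.00187, within 2-fold).

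Tox was at 1.69, 1.71 and 1.94 CPM at d6, its lowest level of all groups. At d10 it was at 3.77, 4.12 and 5.06 CPM in replicates 1 to 3 and at 7.61 and 6.75 CPM in replicates 4 and 5, so that the d10 tumors of the second library set lay above those of the first. Tox rose by 1.64 on the log2 scale (SE 0.27, adjusted p = 0.00368), and by 1.30 against replicates 1 to 3 alone, which share a library set with d6 (adjusted p = 0.00138; range over the alternatives 1.08e-07 to 0.0262). Nr4a2, an orphan nuclear receptor, was at 3.00, 3.00 and 3.69 CPM at d6. Its d10 values of 7.42, 7.57, 8.22, 6.16 and 7.27 CPM were all higher (log2 difference 1.21, SE 0.16, adjusted p = 0.00145).

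The stem-like factors and the other NR4A genes gave a mixed picture over the same interval. Lef1 was at 2.02 to 2.62 CPM at d6 and 3.53 to 5.17 CPM at d10 without overlap (log2 difference 0.87, SE 0.20, adjusted p = 0.0146, within 2-fold). Tcf7 was at 7.05, 7.58 and 6.66 CPM at d6 and at 8.72, 7.91, 7.21, 11.9 and 7.11 CPM at d10, and the groups overlapped (log2 difference 0.30, adjusted p = 0.288). Id3 spread widely at d10, from 2.17 to 11.2 CPM, and its difference did not pass the test (adjusted p = 0.235). The highest Id3 and the highest Tcf7 value of the group came from replicate 4, in which 8 B cell markers summed to 213 CPM against 55.4 CPM in the lowest and 69.3 CPM in the median d10 tumor, and the part of B cells in these values was not tested. Nr4a1 differed by 0.53 (SE 0.15, adjusted p = 0.0422, within 2-fold) and Nr4a3 by 0.13 (adjusted p = 0.619).

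The T cell markers moved with these genes: 9 of 12 were called higher at d10, Cd8a by 3.19 and Cd3e by 2.10 on the log2 scale, while Cd4 was not (log2 difference -0.39, adjusted p = 0.174). Of 6 tested markers of NK cells, which also use Tbx21 and Eomes, 3 were called higher, by up to 3.38. Of the 6, 4 had positive differences, and the lowest stood at -0.63. Ncr1 of this list was at 6.15 to 7.16 CPM at d6 and lower, at 2.71 to 5.76 CPM, at d10, and was not called. The part of NK cells in the rise of Tbx21 and Eomes was not tested. Among the lists of related genes, 6 of 8 effector genes were called higher, led by the chemokine receptor gene Cx3cr1 (log2 difference 3.41, adjusted p = 0.000586) and the granzyme gene Gzmk (2.51, adjusted p = 0.000147). Cx3cr1 was also called higher at d14 against d6, where Gzma of the same list was called lower. Which cells the Cx3cr1 transcripts came from was not tested. Of 10 tested exhaustion surface genes 7 were called higher, led by Cxcr6 (3.43, adjusted p = 1.83e-05) and Pdcd1, the gene of PD-1 (3.15, adjusted p = 0.000176). The list also held Ctla4, the gene of the treatment's target, which was at no more than 3 counts in every group and was not tested. Of 24 other T cell transcription factors 1 was called higher, Id2 (1.11, adjusted p = 0.0016), and 1 lower, Foxp3, the factor of regulatory T cells (fell by 1.27, adjusted p = 0.0123). Of 8 stem-like and naive surface genes 2 were called higher, Il7r (2.23, adjusted p = 0.000161) and Cd27 (1.88, adjusted p = 0.000603), and 2 were called lower.

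Relative to CD3 counts the d10 tumors held less of most transcripts than the d6 tumors, since CD3 counts rose: 94.0% of all genes tested were called lower, with a median log2 difference of -2.13. The members stood at a median of -1.39, and 7 of 10 were called lower. The 3 that were not were Tox, Tbx21 and Nr4a2, the last of which passed without d6 replicate 1 (-1.03) or d10 replicate 3 (-1.04). Tox was at 56.1, 62.2 and 69.6 counts per 1000 CD3 counts at d6 and 30.6, 31.7, 45.9, 55.6 and 53.5 at d10 (log2 difference -0.53, SE 0.25, adjusted p = 0.0661). Tcf7 fell by 1.87 on this scale (SE 0.17, adjusted p = 8.38e-07), from 234 to 275 counts per 1000 CD3 counts at d6 to 56.4 to 87.2 at d10. How many members are called depended on the scale: none passed when Cd2, Cd5, Cd6 and Lck took the place of CD3, where Tcf7 differed by -0.82 on the log2 scale, and 10 of 10 passed with Cd8a and Cd8b1. The number of all genes called moved as well. Of 16866 genes 9192 were called with Cd2, Cd5, Cd6 and Lck and 16652 with Cd8a and Cd8b1, 1.5% and 0.1% of them higher. The values per CD3 count are ratios of counts and not transcripts per T cell.

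From d10 to d14 the untreated tumors lost transcripts of Lef1 and Tbx21. Both were called lower, 2 of 10 members where 3.45% of 17659 genes were, and no member was called higher, where 3.78% were. By adjusted p-value alone 3 of 10 were lower, against 9.87% of all genes. The median was -0.51 over the members and -0.035 over all genes.

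**Figure D2:**
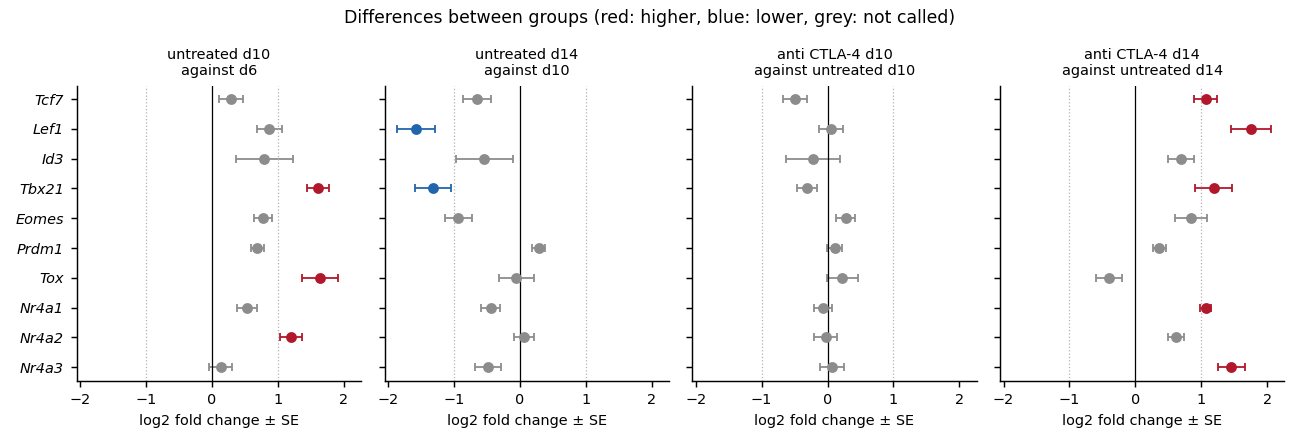
Log2 fold change ± SE (horizontal axis) of each transcription factor gene (vertical axis) in 4 comparisons, from edgeR. Red points were called higher and blue points lower, grey points were not called, and dotted lines mark a 2-fold difference. Tbx21 is red from d6 to d10, blue from d10 to d14 and red again after treatment at d14, and no point is colored for treated d10 tumors.

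Lef1, which partners β-catenin at Wnt target genes, had been at 4.28, 5.17, 3.65, 4.74 and 3.53 CPM in the d10 tumors. At d14 it was at 1.41, 0.85 and 2.07 CPM. All d14 tumors lay below all d10 tumors, and Lef1 fell by 1.57 on the log2 scale (SE 0.29, adjusted p = 0.00932). Tbx21 was at 5.93, 3.43 and 8.27 CPM at d14, again without overlap with d10, and fell by 1.31 (SE 0.27, adjusted p = 0.0123). Eomes was at 4.83, 2.71 and 5.04 CPM (log2 difference -0.93, SE 0.21, adjusted p = 0.0165, within 2-fold), and passed 2-fold without d14 replicate 1 (-1.06) or replicate 3 (-1.08). Tcf7 was at 5.65, 4.31 and 6.56 CPM at d14, below every d10 tumor, and missed the threshold (log2 difference -0.64, SE 0.21, adjusted p = 0.0602).

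Tox did not follow the T-box genes. It was at 5.25, 4.13 and 6.57 CPM at d14, within the d10 range, with a log2 difference of -0.05 (SE 0.27, adjusted p = 0.909). Prdm1 was at 27.2 to 30.1 CPM at d14, above every d10 tumor (log2 difference 0.29, SE 0.10, adjusted p = 0.0596). Nr4a2 was at 6.73 to 8.61 CPM (log2 difference 0.06), Nr4a1 at 10.8 to 12.1 CPM (log2 difference -0.44, adjusted p = 0.0563), Nr4a3 at 5.00 to 8.72 CPM (log2 difference -0.48, adjusted p = 0.117) and Id3 at 2.94 to 4.74 CPM (log2 difference -0.54, adjusted p = 0.393). Against d10 replicates 1 to 3 alone Tox was at 0.30 and against replicates 4 and 5 alone at -0.45, and neither passed (adjusted p = 0.3 and 0.16; range over the alternatives 0.16 to 0.997).

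Lef1 and Tbx21 were called lower against either part of the d10 group, with log2 differences of -1.59 and -1.20 against replicates 1 to 3 and of -1.53 and -1.46 against replicates 4 and 5. Over the same interval 8 of 12 T cell markers, 2 of 6 tested NK cell markers and 3 of 7 macrophage markers were called lower, and their part in the differences of the members was not tested. Of 8 effector genes 5 were called lower, led by Gzma (fell by 2.98, adjusted p = 0.00415) and Gzmb (fell by 1.91, adjusted p = 0.00415), both granzymes. Of the exhaustion surface genes 2 of 10 were called lower, Cd160 (fell by 1.09) and Lag3 (fell by 1.07, adjusted p = 0.0496), of the other T cell transcription factors 2 of 24, Zbtb32 (fell by 1.17) and Batf (fell by 1.09), and of the stem-like surface genes 1 of 8, the chemokine gene Xcl1 (fell by 1.52). None of 9 tested immediate-early genes was called by edgeR or DESeq2, with 3 at an unadjusted p below 0.05.

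Set against CD3 counts, the order changed: 45.0% of all genes were called higher at d14, and so were Prdm1 (log2 difference 1.28, SE 0.21, adjusted p = 0.000202) and Nr4a2 (1.02, SE 0.23, adjusted p = 0.00128), 2 of 10 members. Nr4a2 lost its call without d10 replicate 4 (0.93) or d14 replicate 2 (0.88). Tox was at 75.5, 86.8 and 81.7 counts per 1000 CD3 counts at d14, above each of the d10 tumors. Its log2 difference was 0.90 (SE 0.26, adjusted p = 0.00626, within 2-fold), beside a median of 0.96 over all genes, and it was called without d10 replicate 4 (1.01). Lef1 was at 20.3, 17.9 and 25.8 counts per 1000 CD3 counts, below each d10 tumor (28.0 to 39.8), with a log2 difference of -0.67 (SE 0.27, adjusted p = 0.0364, within 2-fold). Lower by adjusted p-value on this scale were 0.849% of all genes.

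Between the ends of the series, d6 and d14, Tox and Nr4a2 were the 2 members called higher, where 10.2% of 17172 genes were, and none was called lower, where 8.81% were. Tox differed by 1.59 (SE 0.22, adjusted p = 0.000437) and Nr4a2 by 1.27 (SE 0.17, adjusted p = 0.000456). Prdm1 lay just inside 2-fold (0.97, SE 0.10, adjusted p = 0.000113), and without d14 replicate 3 both Prdm1 (1.02, adjusted p = 0.000146) and Lef1 (-1.03, adjusted p = 0.0178) passed, making 4 members called. In that fit 3437 of 17216 genes were called, beside 3270 of 17172 with all libraries. Prdm1 also passed without d6 replicate 1 (1.0), without TMM scaling (1.06) and with all genes of at least 1 count (1.03). The range of adjusted p over the alternatives was 1.02e-15 to 0.000967 for Prdm1 and 0.0178 to 0.224 for Lef1. Tbx21, at 0.29 (SE 0.28, adjusted p = 0.415), and Eomes, at -0.16 (adjusted p = 0.61), overlapped with their d6 levels. Relative to CD3 counts 5 members were called lower at d14 than at d6 (Lef1, Nr4a3, Tcf7, Eomes and Nr4a1), where 58.8% of all genes were. Nr4a1 lost its call without d6 replicate 3 (-0.94) or d14 replicate 3 (-0.96), and its direction turned (0.26) when Cd2, Cd5, Cd6 and Lck took the place of CD3. With those 4 genes as scale Lef1 (-0.62), Nr4a3 (-0.25), Tcf7 (-0.23) and Eomes (-0.07) lost their calls too. Tox (1.71), Nr4a2 (1.42) and Prdm1 (1.15) were called higher there, where 3451 of 17172 genes were called, 65.5% of them higher. Among the related genes, Havcr2, the gene of TIM-3, was called higher (3.16, adjusted p = 1.09e-05), and Foxp3 (fell by 2.23) was called lower.

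Anti CTLA-4 treatment was followed by higher levels of most members in the d14 tumors. Lef1, Nr4a3, Tbx21, Tcf7 and Nr4a1 were called higher, 5 of 10 members where 9.07% of 18062 genes were, and none was called lower, where 2.4% were. By adjusted p-value alone 9 of 10 members were higher, against 17.7% of all genes, and Tox was the exception. The median was 0.95 over the members and -0.0043 over all genes.

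Among the stem-like factors, Lef1 was at 5.17, 4.96 and 4.28 CPM in the treated d14 tumors. The untreated d14 tumors had reached 2.07 CPM at most, so the groups did not overlap, and Lef1 rose by 1.76 on the log2 scale (SE 0.31, adjusted p = 0.00777). Tcf7 was at 11.3, 12.3 and 10.4 CPM after treatment, against 4.31 to 6.56 CPM without (log2 difference 1.07, SE 0.17, adjusted p = 0.0067). Id3 was at 5.96 to 6.37 CPM against 2.94 to 4.74 CPM (0.69, SE 0.19, adjusted p = 0.0295, within 2-fold). The 6 markers of endothelial cells, which also use Id3, summed to 147 to 180 CPM in treated and 91.8 to 110 CPM in untreated d14 tumors, with 0 of 6 called by edgeR or DESeq2. At an unadjusted p below 0.05 were 5 of them and at an adjusted p below 0.05 were 3, all higher, and their part was not tested.

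Among the effector factors, Tbx21 was at 13.6, 13.5 and 12.2 CPM after treatment, all above the untreated d14 tumors (log2 difference 1.19, SE 0.28, adjusted p = 0.0177). Eomes was at 7.65, 7.94 and 6.54 CPM (0.85, SE 0.24, adjusted p = 0.0327, within 2-fold). Prdm1 was at 35.1, 39.8 and 32.0 CPM (0.36, SE 0.10, adjusted p = 0.0281, within 2-fold). The 8 NK cell markers summed to 67.3 to 78.4 CPM in treated and 36.3 to 59.9 CPM in untreated d14 tumors, with Klra8 and Klra4 at no more than 3 counts in any library, and 0 of the 6 tested were called by edgeR or DESeq2. At an unadjusted p below 0.05 were 4 of them and at an adjusted p below 0.05 were 2, both higher, and their part was not tested.

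Untreated d14 replicate 2 weighed on these calls. It held the lowest value of its group for all members but Prdm1, and its T cell markers summed to 132 CPM. Without it 2 members were called of 10, Lef1 and Nr4a3, while Nr4a1 (0.998), Tcf7 (0.91) and Tbx21 (0.90) stayed below 2-fold. In that fit 1388 of 18617 genes were called, 75.3% of them higher, beside 2072 of 18062 and 79.1% with all libraries. Tbx21 also lost its call without untreated d14 replicate 1 (adjusted p = 0.0615) or without treated replicate 1 or 2 (adjusted p = 0.0574 and 0.0565), at unchanged log2 differences of 1.19 to 1.20, and the range over its alternatives was 6.66e-05 to 0.0615. Without untreated d14 replicate 3, Eomes also passed 2-fold (1.03), and 6 members were called, as were 2851 of 18697 genes.

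The treated tumors differed from the untreated d14 tumors in many cell type markers. T cell markers were called higher in 7 of 12 cases, macrophage markers in 5 of 7 (summing to 3399 to 4072 CPM against 1287 to 2224) and fibroblast markers in 5 of 6 (2210 to 3385 CPM against 883 to 1696). The mesothelial or mesothelioma markers summed to 1882 to 2098 CPM against 2767 to 2837, and 2 of 8 were called, both higher. How much of each member's difference came with these cell types was not tested.

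Genes of the related lists were called higher as well. Of 8 effector genes 6 were called higher, led by Gzmb (1.54, adjusted p = 0.00436) and Gzmk (1.39, adjusted p = 0.013). Of 8 stem-like and naive surface genes 4 were called higher, led by Il7r, the interleukin 7 receptor (1.41, adjusted p = 0.00848), and Slamf6, a marker of stem-like exhausted cells (1.36, adjusted p = 0.0135). Of 10 tested exhaustion surface genes 4 were called higher, led by Cd101 (1.29, adjusted p = 0.0104) and Cd38 (1.10, adjusted p = 0.0158). Of 24 other T cell transcription factors 4 were called higher, led by Satb1, a chromatin organizer (1.42, adjusted p = 0.0153), and Irf4 (1.38, adjusted p = 0.0161). No gene of these 4 lists was called lower.

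Tox stood apart from the other members. It was at 3.59, 4.14 and 4.13 CPM in the treated d14 tumors, near the bottom of the untreated d14 values of 5.25, 4.13 and 6.57 CPM, and the ranges overlapped narrowly (log2 difference -0.40, SE 0.19, adjusted p = 0.15). Relative to CD3 counts the groups separated, with 28.3, 32.2 and 34.9 counts per 1000 CD3 counts in treated and 75.5, 86.8 and 81.7 in untreated d14 tumors. On that scale Tox fell by 1.35 (SE 0.27, adjusted p = 0.000227) and was the 1 member of 10 called, where 50.7% of all genes were called lower.

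**Figure D3:**
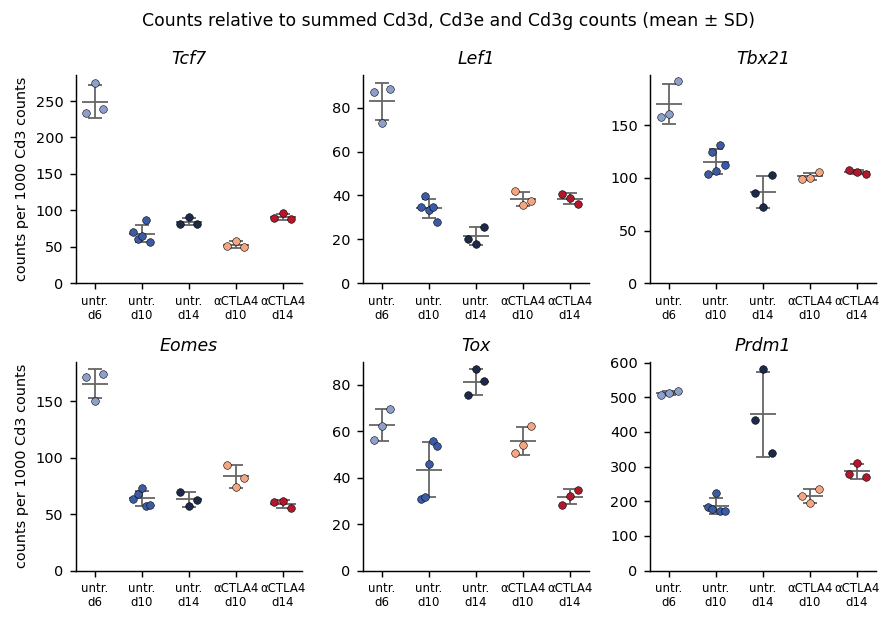
Counts of 6 of the genes per 1000 summed counts of Cd3d, Cd3e and Cd3g (vertical axis, starting at 0) in every tumor, by group (horizontal axis). Points are tumors and bars the mean ± SD. Tox lies between 28.3 and 34.9 in treated d14 tumors and between 75.5 and 86.8 in untreated d14 tumors, while Tcf7 overlaps between these groups.

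The fall of Tox per CD3 count was also called with the other T cell scales, at -1.42 with Cd8a and Cd8b1 and -1.63 with Cd2, Cd5, Cd6 and Lck. The median gene stood at -1.02 on the CD3 scale, -1.10 with Cd8a and Cd8b1 and -1.30 with Cd2, Cd5, Cd6 and Lck. With these other scales 10397 and 12610 of 18062 genes were called, 1.7% and 1.1% of them higher. On the CD3 scale the members' median was -0.01. Tcf7 (0.10), Nr4a1 (0.07), Eomes (-0.09) and Tbx21 (0.28) did not pass the test on that scale. Lef1 was higher per CD3 count by adjusted p-value (0.85, SE 0.29, adjusted p = 0.0121, within 2-fold, and 1.01 without untreated d14 replicate 3) with the groups apart, and Prdm1 was lower (-0.66, SE 0.25, adjusted p = 0.0237, within 2-fold).

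The count of Tcf7 per count of Tox put the 2 patterns together, as a description. It was 4.01 ± 0.52 (SD, n = 3) at d6, 1.66 ± 0.48 (n = 5) at d10 and 1.04 ± 0.04 (n = 3) at d14 in untreated tumors. In treated tumors it was 0.96 ± 0.15 (n = 3) at d10 and 2.87 ± 0.33 (n = 3) at d14. The treated d14 tumors lay between 2.51 and 3.14, above every other tumor of d10 and d14 and below every d6 tumor, the lowest of which was at 3.43. The count of Eomes per count of Tbx21 was 0.98 ± 0.10 at d6, 0.56 ± 0.09 at d10 and 0.74 ± 0.11 at d14 in untreated tumors, and 0.82 ± 0.11 at d10 and 0.56 ± 0.03 at d14 in treated tumors.

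**Figure D4:**
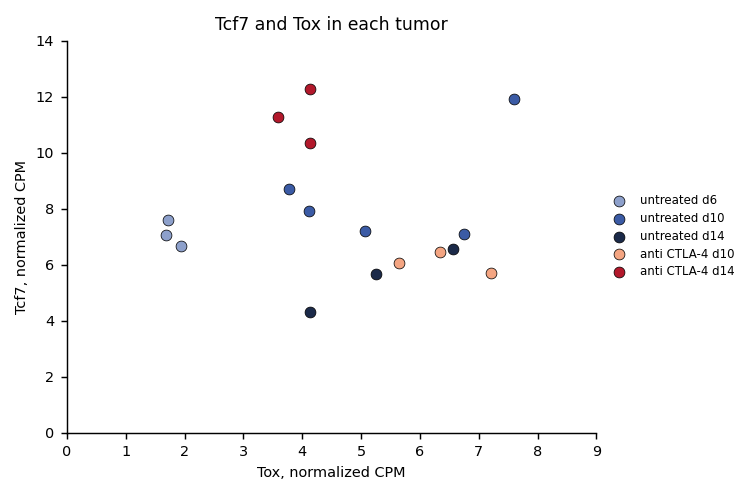
Normalized CPM of Tcf7 (vertical axis) against Tox (horizontal axis), with 1 point per tumor and color for the 5 groups. The 3 treated d14 tumors combine 10.4 to 12.3 CPM of Tcf7 with 3.59 to 4.14 CPM of Tox, and the 3 untreated d14 tumors hold 4.31 to 6.56 CPM of Tcf7 and 4.13 to 6.57 CPM of Tox.

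The 3 NR4A genes encode orphan nuclear receptors that act without a known ligand and are switched on within minutes to hours of a stimulus, in part through CREB, a factor that binds the cAMP response element. Nr4a1 was at 23.7, 22.8 and 24.8 CPM in treated and 12.1, 10.8 and 12.0 CPM in untreated d14 tumors. The treated values were the highest of all 17 libraries, and Nr4a1 rose by 1.06 on the log2 scale (SE 0.09, adjusted p = 0.00324). Nr4a3 was at 20.5, 20.7 and 18.8 CPM in treated and 8.59, 5.00 and 8.72 CPM in untreated d14 tumors, also with all treated values above the rest of the series (1.46, SE 0.21, adjusted p = 0.0054). Nr4a2 was at 11.3, 11.4 and 11.8 CPM against 7.71, 6.73 and 8.61 CPM (0.61, SE 0.12, adjusted p = 0.0112, within 2-fold).

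Because the 3 genes had their highest values in the same tumors, the sequences before their transcription starts are shown, as RefSeq gives them for GRCm38.p6, with each half-site TGACG of the cAMP response element in capitals on either strand (CGTCA is the same site read on the other strand). Each runs 5′ to 3′ in the direction of the gene over the 250 bases that end at its RefSeq start, at chr15:101266596-101266845 (plus strand) for Nr4a1, chr2:57124004-57124253 (minus strand) for Nr4a2 and chr4:48045055-48045304 (plus strand) for Nr4a3.
Nr4a1: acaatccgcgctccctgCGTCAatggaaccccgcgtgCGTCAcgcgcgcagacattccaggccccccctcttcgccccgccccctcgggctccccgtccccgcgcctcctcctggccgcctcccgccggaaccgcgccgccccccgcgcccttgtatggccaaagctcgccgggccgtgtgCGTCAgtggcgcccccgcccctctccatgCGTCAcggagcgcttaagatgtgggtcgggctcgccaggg
Nr4a2: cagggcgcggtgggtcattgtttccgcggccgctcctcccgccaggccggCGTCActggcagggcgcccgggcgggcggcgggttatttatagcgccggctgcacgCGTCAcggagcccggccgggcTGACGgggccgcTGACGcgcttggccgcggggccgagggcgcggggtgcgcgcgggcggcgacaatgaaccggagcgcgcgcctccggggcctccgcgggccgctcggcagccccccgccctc
Nr4a3: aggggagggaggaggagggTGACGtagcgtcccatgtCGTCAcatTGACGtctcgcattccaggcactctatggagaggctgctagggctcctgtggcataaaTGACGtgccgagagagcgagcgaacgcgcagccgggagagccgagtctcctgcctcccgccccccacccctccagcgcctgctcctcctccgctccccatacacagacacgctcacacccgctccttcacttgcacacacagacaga

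Each of the 3 sequences holds 4 half-sites, at 233, 213, 69 and 40 bases before the start of Nr4a1, at 200, 144, 123 and 111 bases before that of Nr4a2 and at 231, 213, 205 and 147 bases before that of Nr4a3. Windows from 250 bases before to 50 bases after a RefSeq start were found for 9 of the 10 members. In them Id3 and Prdm1 have 1 half-site each, and Tcf7, Lef1, Eomes and Tbx21 have none. The windows of Nr4a1 and Prdm1 lie well inside the counted genes. These begin upstream, at 101254269 (Nr4a1, plus strand) and 44528501 (Prdm1, minus strand). Which starts were used in the tumors was not tested. Of 32851 such windows of mouse genes 20.81% hold at least 1 half-site and 0.231% hold 4 or more. The full element TGACGTCA, which contains a half-site on each strand, is in 1.79% of windows and in none of the 3. The sequences are rich in G and C (74.4%, 80.0% and 63.6%, against a median of 52.4% over all windows), and the half-site itself contains CG, so that base composition is shared between them. The count of 4 was noticed after the expression values had been seen, and the capitals mark matches of letters, not bound sites.

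Other immediate-early genes, which the same kinds of stimuli induce, were read in the same tumors. Of 9 tested, 0 were called by edgeR or DESeq2, 6 were at an unadjusted p below 0.05 and at an adjusted p below 0.05, 4 of them higher, and their median log2 difference was 0.14. Dusp1 (0.93, SE 0.11, adjusted p = 0.00469) and Fosb (0.91, SE 0.14, adjusted p = 0.00655) came closest to 2-fold, whereas Egr1 (-0.40, SE 0.07, adjusted p = 0.00664) and Egr3 (-0.34, SE 0.10, adjusted p = 0.0386) were lower. Per CD3 count Nr4a3 differed by 0.52 (SE 0.24, adjusted p = 0.054), Nr4a1 by 0.07 (adjusted p = 0.817) and Nr4a2 by -0.37 (adjusted p = 0.178).

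**Figure D5:**
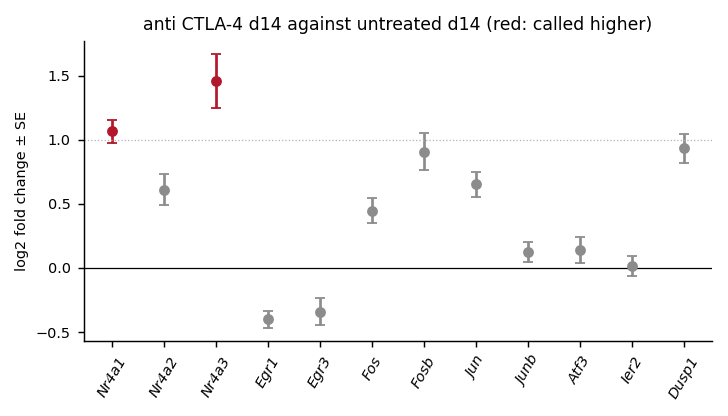
Log2 fold change ± SE (vertical axis) of the 3 NR4A genes and of 9 other immediate-early genes (horizontal axis) in treated against untreated d14 tumors, from edgeR. Red points were called higher, grey points were not, and the dotted line marks 2-fold. Nr4a1 and Nr4a3 are the red points, at 1.06 and 1.46, and Egr1 is the lowest at -0.40.

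In the treated d10 tumors no member was called against untreated d10 tumors, by edgeR or by DESeq2. Of 17258 genes edgeR called 0.0174%, which is 3 genes, and DESeq2 called 223. B cell markers summed to 43.1 to 50.6 CPM in treated and 55.4 to 213 CPM in untreated d10 tumors, with 0 of 8 called by edgeR, 6 at an unadjusted p below 0.05 and 5 called by DESeq2. Relative to CD3 counts no member was called by edgeR either, with 1 (Eomes) at an unadjusted p below 0.05 and 0.0695% of genes called. In CPM, Tcf7 was the 1 member at an unadjusted p below 0.05 (log2 difference -0.50, SE 0.18, adjusted p = 0.314). It was at 6.45, 6.05 and 5.71 CPM after treatment, below each untreated d10 tumor. Tbx21 was at 10.5 to 12.4 CPM (-0.32, SE 0.15, adjusted p = 0.393), Eomes at 7.76 to 11.8 CPM (0.28, SE 0.15, adjusted p = 0.428) and Nr4a3 at 7.86 to 13.4 CPM (0.07, SE 0.18, adjusted p = 0.874).

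Tox was at 6.34, 5.64 and 7.21 CPM in treated d10 tumors, and its difference depended on the untreated tumors it was set against. It was 0.22 (SE 0.24, adjusted p = 0.688) against all 5, -0.18 (adjusted p = 0.553) against replicates 4 and 5, which share the library set of the treated d10 tumors at 3 sets but not at 4, and 0.58 (adjusted p = 0.0277) against replicates 1 to 3. The range of adjusted p over the alternatives was 0.0193 to 0.907. The part of the library set in these values was not tested.

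The effect of treatment differed between d14 and d10 for the 5 members called at d14, as tested by the interaction of treatment and day. The difference of the log2 effects was 1.69 (SE 0.35, adjusted p = 0.00723) for Lef1, 1.56 (SE 0.27, adjusted p = 0.00378) for Tcf7, 1.5 (SE 0.32, adjusted p = 0.00833) for Tbx21, 1.37 (SE 0.29, adjusted p = 0.00793) for Nr4a3 and 1.11 (SE 0.18, adjusted p = 0.00328) for Nr4a1. These are 5 of 10 members where 9.67% of 18574 genes were called higher. Markers of T cells and other cells moved with this difference: 10 of 12 T cell markers were called higher (median 1.40), as were 6 of 8 B cell markers (median 4.02), 5 of 7 macrophage markers (median 1.32), 5 of 6 fibroblast markers (median 1.62), 3 of 5 plasma cell markers (median 2.71) and 2 of 6 tested NK cell markers (median 0.92). Foxp3 differed by 3.87 (SE 0.54, adjusted p = 0.00243). Treated against untreated, the 24 other T cell transcription factors, Foxp3 among them, lay between -0.42 and 1.42 at d14. At d10 they lay between -2.60 and 0.20. The B cell markers had a median of 0.92 at d14 and of -3.23 at d10, so lower values at d10 enter these differences. The part of the cell types in the members' differences was not tested. The same 5 members were called with either part of the untreated d10 group, and Id3 joined them against replicates 4 and 5 alone (1.48, adjusted p = 0.015; range over its alternatives 0.015 to 0.533). For Tox the difference was -0.63 (SE 0.33, adjusted p = 0.207) in CPM and -1.71 (SE 0.32, adjusted p = 0.000424) relative to CD3 counts, where 53.4% of all genes were called lower. In CPM it was -0.98 against replicates 1 to 3 (adjusted p = 0.0102) and -0.23 against replicates 4 and 5 (adjusted p = 0.525), with a range over the alternatives of 0.00803 to 0.525.

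Treated d14 tumors were also set against untreated d10 tumors, whose T cell markers summed to a similar level (336 to 464 CPM against 353 to 407). No member was called by edgeR or DESeq2, where edgeR called 7.83% of 18057 genes in either direction and DESeq2 1564. Tbx21 (-0.19), Eomes (-0.15), Lef1 (0.13) and Tcf7 (0.36, SE 0.18, adjusted p = 0.161) overlapped between the groups. Tox stood at -0.52 (adjusted p = 0.153), at -0.16 against replicates 1 to 3 (adjusted p = 0.461) and at -0.89 against replicates 4 and 5 (adjusted p = 0.00381), with a range over its alternatives of 0.00381 to 0.461. The 4 members at an unadjusted p below 0.05 were also those at an adjusted p below 0.05, against 12.4% of genes that were higher by that measure: Nr4a3 (0.91, SE 0.13, adjusted p = 0.00233), Nr4a2 (0.61, SE 0.12, adjusted p = 0.00802), Prdm1 (0.58, SE 0.10, adjusted p = 0.00416) and Nr4a1 (0.56, SE 0.13, adjusted p = 0.0124), each with all treated tumors above all untreated ones. How many of all genes separated in this way was not counted, and these groups share no library set at 3 or 4 sets.

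Nr4a3 passed 2-fold without TMM scaling (1.05) and against d10 replicates 4 and 5 alone (1.09, adjusted p = 0.00135; range over its alternatives 6.03e-10 to 0.0188). Relative to CD3 counts the NR4A genes and Prdm1 were again higher by adjusted p-value, as were 12.2% of genes, Nr4a3 by 0.95 (SE 0.16, adjusted p = 0.00552) and Nr4a1 by 0.62 (SE 0.11, adjusted p = 0.00773). No member was called on that scale, unless d10 replicate 3 was left out (Nr4a3, 1.04), with 7.31% of genes called, and 5 were at an unadjusted p below 0.05. Of the related lists, Gzma (fell by 1.81, adjusted p = 0.00177) and Xcl1 (fell by 2.41, adjusted p = 0.0018) were called lower and Il7r (1.05, adjusted p = 0.00244) higher. These comparisons share the untreated d10 and d14 tumors as their controls, so the same libraries stand behind several of the values given for a member.

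Across the 17 libraries the genes whose log2 CPM followed each member most closely, among 12323 genes, differed from member to member. For Tbx21 they were Cd247, Lck and Ubash3a, all genes of T cell receptor signaling (Pearson r = 0.99, 0.98 and 0.98). For Eomes they were Sh2d1a (0.93), Lef1 (0.92) and Zbtb32 (0.92), and for Lef1 they were Gfi1 (0.97), Il21r and B4galnt1 (0.95 each). For Tcf7 they were Ptger4 (0.96), Rtn1 and Zcchc3 (0.93 each), and for Tox Hip1r (0.93), Slc22a18 and Actn1 (0.92 each).

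For Id3 the nearest genes were Npr1 (0.93), March2 and the endothelial gene Plvap (0.91 each), and for Prdm1 they were Pag1, Nbea (0.98 each) and Sash1 (0.97). Nr4a1 was nearest to Clstn1 (0.94), Cyth4 and Adam19 (0.93 each), Nr4a2 to Atxn1, Mink1 (0.97 each) and Abca1 (0.96), and Nr4a3 to Rab8b (0.93), Apba1 and Ikbke (0.91 each). Tcf7 correlated more with the macrophage gene Csf1r (0.85) and the collagen gene Col1a1 (0.83) than with Cd3e (0.45). Lef1 (0.87 and 0.72), Nr4a1 (0.86 and 0.74), Nr4a3 (0.81 and 0.47) and Id3 (0.69 and 0.59) also correlated more with Csf1r than with Cd3e. With Adgre1, another macrophage gene, this held for Tcf7 (0.64) only. Lef1 (0.55), Nr4a1 (0.28), Nr4a3 (0.41) and Id3 (0.33) correlated less with Adgre1 than with Cd3e. Tbx21, Eomes, Prdm1, Nr4a2 and Tox correlated more with Cd3e than with Csf1r. Tox correlated with Cd8a (0.83), with Msln, the mesothelin gene of mesothelial cells (0.82), and with Cd3e (0.76), and inversely with Foxp3 (-0.71). These are descriptions over libraries that share tumor composition, depth and library set.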

How the data were processed

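RNA of whole peritoneal AB12 tumors was sequenced in 17 libraries in 5 groups. The authors deposited raw read counts per gene, made with TopHat2 2.0.14 on GRCm38 (mm10), from uniquely mapped reads counted with HTSeq on Gencode vM21 genes. Reads of overlapping or repeated genes can therefore be lost. The strand setting and which libraries ran on which sequencer are not given in the sources used here.

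Groups were taken from the labels. Counts were fitted with edgeR 4.0.16 in R 4.3.3 (filterByExpr, TMM, quasi-likelihood test, Benjamini-Hochberg adjustment over all tested genes), using only the groups compared, and a gene was called where its adjusted p was below 0.05 and its log2 difference exceeded 1 in either direction. A second fit took the summed Cd3d, Cd3e and Cd3g counts as library scale. The procedure was tested on simulated data with known changes, for some of the comparisons. The scaling genes were held unchanged there, so the simulation does not bear on CD3 counts that differ between groups. Total counts were 46371577 to 96759833, and 20211 genes had no count. Replicate libraries differed beyond counting error (chi-square per gene 18.8 to 271 over 22 pairs). P-values measure the spread between libraries.

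Alternatives were DESeq2 1.42.0, no TMM, a looser filter (1 count) and a stricter one (10 counts in each library), a fit of all 5 groups together, thinned counts, protein coding genes only, a replicate block, other T cell scales, parts of the d10 group and leaving out each library. Named were all 10 members, the 2 called genes of each list with the largest fold change in a comparison, and the 3 genes with the highest Pearson correlation of log2(CPM + 0.5) to each member among genes with a mean of at least 1 CPM. Genes named beyond this rule were chosen after their values were seen. A gene that the rule names is not reported here. The members and lists were chosen with earlier results of these data known. Figures were drawn with matplotlib 3.10.9.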

Additional observations from a re-analysis of the deposited data

Results flagged for a closer look

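Among 28 groups of 5 libraries examined, 2 held a library far from the others by Dixon's test, whose critical value for 5 is 0.71 and which chance alone exceeds in about 1 of 20 groups. Untreated d10 replicate 3 had 225 counts of Prdm1 per 1000 CD3 counts, with a gap to the next library of 0.769 of the group's range. Untreated d10 replicate 4 had 213 CPM in the summed B cell markers, with a gap of 0.874 of the range.

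The effect of treatment at d14 and at d10 differed by the interaction test of edgeR for Tcf7 by 1.56, Lef1 by 1.69, Tbx21 by 1.5, Nr4a1 by 1.11 and Nr4a3 by 1.37 on the log2 scale. Relative to CD3 counts it differed for Tox by -1.71 (adjusted p = 0.000424) and for Prdm1 by -0.87 (adjusted p = 0.0069, within 2-fold), where Prdm1 passed 2-fold without untreated d14 replicate 3 (-1.04) and with both other T cell scales (-1.03 with Cd8a and Cd8b1 and -1.34 with Cd2, Cd5, Cd6 and Lck).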

How the results depend on the processing

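Of 140 log2 differences of a member, on both scales and in 7 comparisons, 33 were called, and 1 of these took the opposite sign under an alternative (Nr4a1 relative to CD3, d14 against d6). The number of members called was within 1.5 times the reported one under DESeq2, both filters, all groups in 1 fit and thinning in every comparison in CPM. These alternatives were not run relative to CD3. For treated d14 against untreated d10 tumors it was 1 in place of 0 without TMM scaling and 1 with untreated d10 replicates 4 and 5 only, in CPM and relative to CD3. Scaled by Cd2, Cd5, Cd6 and Lck in place of CD3, it was 0 in place of 7 for d10 against d6, 3 in place of 5 for d14 against d6 and 2 in place of 1 for the difference of the treatment effects. Scaled by Cd8a and Cd8b1 the last 2 were 8 and 2. The 3 called for d14 against d6 with Cd2, Cd5, Cd6 and Lck were Tox (1.71), Nr4a2 (1.42) and Prdm1 (1.15), all higher. None of them was among the 5 called with CD3, which were all lower. Of all genes, the scale of Cd2, Cd5, Cd6 and Lck called 9192 of 16866, 3451 of 17172 and 12831 of 18574 in these 3 comparisons. That of Cd8a and Cd8b1 called 15596 and 11290 in the last 2, beside 10462 and 10315 with CD3. Leaving out 1 library at a time, the number of members called ranged from 2 to 4 (d14 against d6) and 2 to 6 (treated against untreated d14), and relative to CD3 from 1 to 2 (d14 against d10, treated against untreated d14, and the difference of the treatment effects) and 0 to 1 (treated d14 against untreated d10). With untreated d10 replicates 4 and 5 only, the log2 difference took the opposite sign for Nr4a3 (-0.047) in d10 against d6, Id3 (-0.45) in treated d14 against untreated d10, Tox (-0.18) and Nr4a2 (0.096) in treated against untreated d10, Eomes (0.12) and Id3 (-0.067) in d14 against d10 relative to CD3, Eomes (0.034) and Id3 (-0.33) in treated d14 against untreated d10 relative to CD3 and Id3 (0.30) and Nr4a1 (0.038) in the difference of the treatment effects relative to CD3. Without TMM scaling, the log2 difference took the opposite sign for Tox (0.025) in d14 against d10. With counts thinned to the smallest library, the log2 difference took the opposite sign for Tox (0.0023) in d14 against d10. With protein coding genes only, the log2 difference took the opposite sign for Tox (0.0091) in d14 against d10. With the replicate number as a block, the log2 difference took the opposite sign for Tox (0.29), Id3 (0.072) and Nr4a2 (-0.010) in d14 against d10, Id3 (0.39), Nr4a1 (0.028) and Nr4a3 (-0.048) in treated against untreated d10 and Id3 (0.47) and Nr4a2 (-0.055) in treated against untreated d10 relative to CD3. With untreated d10 replicates 1 to 3 only, the log2 difference took the opposite sign for Tox (0.30), Id3 (0.019) and Nr4a2 (-0.0056) in d14 against d10, Id3 (0.33), Nr4a1 (0.022) and Nr4a3 (-0.018) in treated against untreated d10 and Id3 (0.42) and Nr4a2 (-0.050) in treated against untreated d10 relative to CD3. Scaled by Cd2, Cd5, Cd6 and Lck, the log2 difference took the opposite sign for Tox (0.51), Tbx21 (0.49) and Nr4a2 (0.14) in d10 against d6 relative to CD3, Eomes (0.24) in d14 against d10 relative to CD3, Tbx21 (0.37), Id3 (0.38), Prdm1 (1.15) and Nr4a1 (0.26) in d14 against d6 relative to CD3, Tcf7 (-0.18), Tbx21 (-0.0014) and Nr4a1 (-0.21) in treated against untreated d14 relative to CD3, Tbx21 (0.013) and Id3 (0.19) in treated against untreated d10 relative to CD3 and Tcf7 (-0.0046), Tbx21 (-0.014) and Nr4a3 (-0.11) in the difference of the treatment effects relative to CD3. Scaled by Cd8a and Cd8b1, the log2 difference took the opposite sign for Eomes (0.013) in d14 against d10 relative to CD3, Tox (-0.62) and Nr4a2 (-0.91) in d14 against d6 relative to CD3, Nr4a1 (-0.0081) in treated against untreated d14 relative to CD3 and Id3 (0.042) in treated against untreated d10 relative to CD3. Leaving out 1 library at a time, the sign turned for Nr4a3 (-0.017 to 0.23) in d10 against d6, Tox (-0.22 to 0.097) and Nr4a2 (-0.017 to 0.15) in d14 against d10, Eomes (-0.29 to 0.078) and Tbx21 (-0.015 to 0.57) in d14 against d6, Id3 (-0.11 to 0.49) in treated d14 against untreated d10, Nr4a2 (-0.23 to 0.13), Id3 (-0.43 to 0.17), Nr4a1 (-0.14 to 0.0013), Lef1 (-0.078 to 0.17) and Nr4a3 (-0.095 to 0.26) in treated against untreated d10, Eomes (-0.096 to 0.047) in d14 against d10 relative to CD3, Nr4a2 (-0.058 to 0.20) in d14 against d6 relative to CD3, Nr4a1 (-0.062 to 0.25) in treated against untreated d14 relative to CD3, Id3 (-0.0047 to 0.53) in treated d14 against untreated d10 relative to CD3, Id3 (-0.24 to 0.29), Nr4a2 (-0.065 to 0.17) and Nr4a1 (-0.0013 to 0.13) in treated against untreated d10 relative to CD3 and Nr4a1 (-0.13 to 0.18) in the difference of the treatment effects relative to CD3. Same-numbered replicates did not deviate together (r of the deviations from the group means between -0.30 and 0.20), so the numbers were not taken to pair the tumors. With the replicate number as a block the members called were 3 in place of 2 for d14 against d10, Eomes being added (-1.01), and 3, 2, 5, 0, 0 and 5 in the other 6 comparisons in CPM, as reported. Relative to CD3 Tox passed (1.19) and Nr4a2 missed (0.89) 2-fold for d14 against d10 under the block. The number of all genes called in treated against untreated d10 tumors was 3, against 223 by DESeq2, 40 with all genes of at least 1 count, 7 with at least 10 counts in every library, 77 with all groups in 1 fit, 0 without TMM scaling, with thinned counts or with protein coding genes only, 1133 with the block, 1152 with untreated d10 replicates 1 to 3, 96 with replicates 4 and 5, and 0 to 115 with 1 library left out (115 without untreated d10 replicate 5). For d10 against d6 it was 1257, against 2794 with replicates 4 and 5 (44.4% of them higher, against 64.3%) and 810 without d6 replicate 1 or 819 without d6 replicate 3. For d14 against d10 it was 1277, against 2001 with all groups in 1 fit, 821 with at least 10 counts, 707 with protein coding genes (38.6% higher, against 52.3%), 1969 with replicates 1 to 3, and 808, 788, 732 and 281 without d10 replicate 1, d10 replicate 2, d14 replicate 1 and d14 replicate 2. For d14 against d6 it was 3270, against 2151 with at least 10 counts and 1995 with protein coding genes, and the median over all genes moved to 0.14 with all genes of at least 1 count. For treated against untreated d14 it was 2072, against 1361, 1172 and 1202 without untreated replicate 1, treated replicate 1 and treated replicate 2, and 90.4% in place of 79.1% were higher among protein coding genes. For treated d14 against untreated d10 it was 1414, against 807 with at least 10 counts, 774 with protein coding genes, 2319 with the block, 2271 with replicates 1 to 3, 2202 with replicates 4 and 5, and 838, 588 and 937 without treated replicates 1, 2 and 3. Without TMM scaling 82.2% in place of 68.2% of the called genes were higher, and the median over all genes moved from -0.035 to 0.11. For the difference of the treatment effects it was 2196, against 1315 without untreated d14 replicate 2, 1468 without treated d10 replicate 2, and 1393 and 1396 without treated d14 replicates 1 and 2. The causes were not tested. With 66 counts in the lowest library, Lef1 had the fewest reads of the members.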
